A study of Mus musculus with 2 samples.

Results

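The 7 genes described here encode parts of the RAS, RAF and MAP kinase cascades: the RAS exchange factor Sos2, the kinases Araf, Braf and Map3k7 of the MAP3K tier, the MAP2K Map2k1, and the MAPKs Mapk8 and Mapk14. They were chosen by the peaks of a YTHDF2 RNA immunoprecipitation (RIP) over their gene bodies, a measured value of these same libraries, and every peak overlapping a gene body by at least 1 bp was taken. That gave 22 of the 9271 peaks in the deposited list. The cells were wild-type C2C12, a mouse myoblast line, kept in 2% horse serum for 4 to 5 days until they had fused into multinucleated myotubes, with no further treatment. These cells gave 1 YTHDF2 RIP library and 1 input library, which carry the same batch label (1), so no value below has a replicate and no difference was tested. The IgG control of the design was not analysed here.

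YTHDF2 binds RNA that carries N6-methyladenosine (m6A), mostly in the cytoplasm, and brings such RNA to the machinery that removes its poly(A) tail and degrades it. In a MAP kinase cascade, RAS bound to GTP recruits RAF kinases, each tier phosphorylates the next, and the last kinase phosphorylates transcription factors and other proteins. In muscle cells, growth factor signals through ERK kinases keep myoblasts dividing, whereas p38 kinases promote differentiation and fusion together with the MEF2 transcription factors.

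For each peak the authors' caller gave a fold enrichment, the RIP pileup over the local input background at the summit with 1 added to both, and these folds are the authors' own. All pileups were whole multiples of 0.9, which was read as 1 RIP fragment, and the background is given on that pileup scale. Each fold is followed by the exact 95% Poisson interval of its RIP fragments. The interval covers counting error of the RIP library only and holds the background fixed, and PCR copies are not independent fragments. The depth of either library is unknown, RNA level is not in these data, and a peak also depends on how abundant its transcript was. Across the whole list a summit held from 8 to 349 RIP fragments with a median of 29, and the median fold was 4.40. Of listed cell type markers, 4 of 16 for myotubes had peaks, all in exons (Ttn, Neb, Mylpf and Tnnt1), beside 1 of 7 for myoblasts (Hgf). The counts were 1 of 7 for neurons (Syn1, in an intron), 0 of 5 for hepatocytes and 0 of 5 for immune cells. Over all protein-coding genes, 15.0% had a peak and 7.01% an exon peak. The markers were listed with earlier results known, and counts this small do not establish the cell type. A marker without a peak may still be expressed.

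The sequences below were read from the RefSeq GRCm38.p6 genome, the same build as mm10, on the strand of the gene. Capitals mark the forms of the m6A consensus searched here, which are GGACA, the variant GGACC and the variant GGACT. For the exon peaks of Sos2 and Araf, which are the members' peaks in the authors' gene table, 30 bases about the summit are shown, and neither stretch holds a match.
Sos2 last exon (chr12:69584628-69584657, minus strand): agcgctcgagggcgttctcacgcctgactg
Araf 5′ UTR (chrX:20848786-20848815, plus strand): tgggagtggatggaggagtcggcctgcagg
Braf is shown by the downstream of a pair of intron 1 peaks that lie 504 bp apart and have the highest folds of the 22.
Braf intron 1, downstream peak (chr6:39698755-39698967, minus strand): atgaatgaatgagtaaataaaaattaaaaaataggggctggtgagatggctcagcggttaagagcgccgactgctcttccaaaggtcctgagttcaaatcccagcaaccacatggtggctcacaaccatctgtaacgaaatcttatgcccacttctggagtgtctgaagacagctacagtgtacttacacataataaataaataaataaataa
The Map3k7 peak is shown for its GGACT pair, and the Mapk8 and Map2k1 peaks as the intron peak nearest a promoter and the sole peak of its tier.
Map3k7 intron 11 (chr4:31999272-31999520, plus strand): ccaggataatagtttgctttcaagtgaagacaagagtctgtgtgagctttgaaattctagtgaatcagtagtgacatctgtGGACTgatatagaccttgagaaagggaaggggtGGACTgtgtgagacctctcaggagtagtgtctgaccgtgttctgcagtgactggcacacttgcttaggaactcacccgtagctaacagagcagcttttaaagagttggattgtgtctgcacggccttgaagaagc
Mapk8 intron 1, near the start (chr14:33446497-33446704, minus strand): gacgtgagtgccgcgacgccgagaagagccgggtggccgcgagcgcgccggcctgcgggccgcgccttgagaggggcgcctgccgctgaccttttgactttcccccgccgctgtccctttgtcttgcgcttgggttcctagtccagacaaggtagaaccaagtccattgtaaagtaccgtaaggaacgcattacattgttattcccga
Map2k1 intron 1 (chr9:64240871-64241098, minus strand): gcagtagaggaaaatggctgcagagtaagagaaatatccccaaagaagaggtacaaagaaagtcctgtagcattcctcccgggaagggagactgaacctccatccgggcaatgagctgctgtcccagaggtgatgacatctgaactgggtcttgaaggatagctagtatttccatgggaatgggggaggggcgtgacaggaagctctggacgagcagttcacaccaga

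Sos2 and Araf had 1 exon peak each, that of Araf in 1 of its 10 transcripts, and the other 20 of the 22 peaks were intronic, in Sos2, Braf, Map3k7, Map2k1, Mapk8 and Mapk14. By tier the RAS exchange factor had 1 exon and 6 intron peaks, the MAP3K tier 1 exon and 10 intron peaks, the MAP2K tier 1 intron peak, and the MAPK tier 3 intron peaks. The intron share was 90.9% (20 of 22, Wilson 95% interval 72.2 to 97.5%), against 77.4% of the 8778 peaks in protein-coding genes of the whole list. The interval takes the 22 peaks as independent, but Braf alone held 8 of the intron peaks and Sos2 held 6. The genes were also chosen by their peaks, so the interval is no test against the whole list. With 2 exon peaks in all, the counts by tier are too few to order the tiers. Exons made up 10.2% of the bases of the 7 genes, against 7.35% in all protein-coding genes with a peak. None of the 22 peaks lay over another annotated gene. The protocol speaks of DNA in making the libraries and gives no strand, and the origin of the fragments in introns was not tested.

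For background, 15.0% of the 21938 protein-coding genes (3287) had at least 1 peak over the gene body, 7.01% (1538) had an exon peak, and 5.81% (1275) had a row in the authors' gene table. Since the 7 genes were selected for their peaks, that 7 of 7 had a peak, 2 of 7 an exon peak and 2 of 7 a row is a description of the choice. Genes with a peak were long, with a median length of 53.4 kb against 14.2 kb for genes without one. The 7 gene bodies ran from 57.1 kb (Mapk14) to 122 kb (Braf), and most of Araf's lies upstream of its main transcript.

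**Figure D1:**
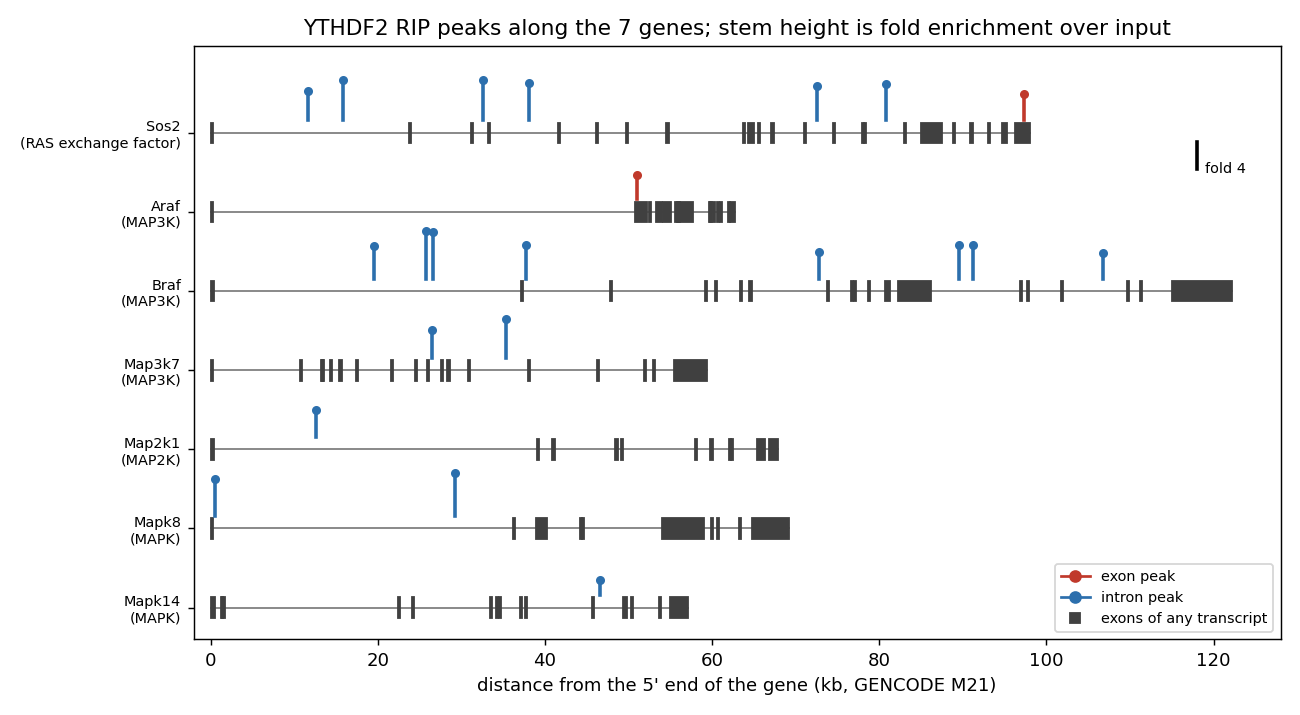
Peaks along the 7 genes, in order of the cascade from the RAS exchange factor to the MAPKs; the x axis is the distance from the gene's 5′ end in kb, dark boxes are exons of any transcript, and the height of each stem is the fold enrichment of a peak over input (bar for scale, fold 4). Exon peaks stand in the last exon of Sos2 and near the start of the main Araf transcript. The Araf peak is exonic in 1 of 10 transcripts and intronic in the main one. The other 20 peaks stand in introns.

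Sos2, the exchange factor that loads RAS with GTP downstream of receptor tyrosine kinases, had 7 peaks over 98.1 kb (chr12:69583762-69681852, minus strand), or 7.14 per 100 kb. At least 7 peaks were found in 286 protein-coding genes. Its exon peak (chr12:69584485-69584706) lay in the 3′ UTR of the principal transcript Sos2-201 and was exonic in 2 of 7 transcripts, and the authors marked it as 3′ UTR. It held 64 RIP fragments over an input background of 13.6, a fold of 4.02 (3.11 to 5.11) and a −log10 q of 14, the largest of the 22. The 6 intron peaks of Sos2 had from 9 to 26 RIP fragments over backgrounds of 1.08 to 3.03, with folds of 4.37 to 6.17. All were thus higher in fold and lower in fragments than the exon peak of the same gene, and the 6 intervals overlapped that of the exon peak.

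Among these, the peak in intron 3 (chr12:69649046-69649479) had 18 RIP fragments over 1.79 and the gene's highest fold, 6.17 (3.81 to 9.55). The downstream peak in intron 1 (chr12:69665863-69666084) had 26 over 3, a fold of 6.10 (4.07 to 8.82). The peak in intron 4 had 24 over 3.03, a fold of 5.61 (3.68 to 8.22). These are the best covered intron peaks of Sos2. The peak in intron 16 had 12 RIP fragments over 1.17, a fold of 5.43 (3.03 to 9.15), and that in intron 13 had 16 over 1.95, a fold of 5.22 (3.13 to 8.26). The upstream peak in intron 1 (chr12:69670084-69670284) was the weakest of all 22 in evidence, with 9 RIP fragments over 1.08, a fold of 4.37 (2.26 to 7.87) and a −log10 q of 2.75. One further peak lay within 10 kb outside the gene and was not counted.

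Araf, a RAF kinase that phosphorylates the MAP2Ks of the ERK branch, had 1 peak over 62.7 kb (chrX:20797814-20860519, plus strand). The peak (chrX:20848678-20848947) held 68 RIP fragments over an input background of 16, a fold of 3.66 (2.85 to 4.62) and a −log10 q of 13.3. The authors marked it as 5′ UTR. It was exonic in 1 of 10 transcripts, Araf-203, where it lay in the 5′ UTR. In the principal transcript Araf-201 it lay in intron 1, 59 bp from the nearest exon and 0.269 kb from the transcript start. It was 51.0 kb from the gene's 5′ end, so most of the 62.7 kb lies upstream of Araf-201, whose introns total 9.62 kb. With exons of the principal transcripts, or of RefSeq curated transcripts, the number of exon peaks in the 7 genes was 1 in place of 2, and Sos2 alone had one. The Araf peak was 35.9% G and none of it was soft-masked as repeat in the reference.

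Braf, the RAF kinase with the highest basal activity toward MAP2Ks, had the most peaks of the 7 genes: 8 over 122 kb (chr6:39603237-39725463, minus strand), or 6.55 per 100 kb, all in introns. At least 8 peaks were found in 216 protein-coding genes. The folds ran from 3.85 to 7.28 on 16 to 34 RIP fragments over backgrounds of 1.12 to 7. Fragments at the summit were fewer in all 8 than in the Araf peak, and the fold was higher in all 8.

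The pair 504 bp apart in intron 1 stood highest. Its upstream peak had 16 RIP fragments over 1.12, a fold of 7.28 (4.36 to 11.5), and its downstream peak had 24 over 2.23, a fold of 6.99 (4.59 to 10.3). Of their bases, 96% and 100% were soft-masked. These were the highest folds among the 22 peaks, above 92.8% and 91.1% of all peaks in the list. The third peak of intron 1 (chr6:39705656-39706107) had 21 RIP fragments over 2.98, a fold of 5.01 (3.19 to 7.52), and it held 2 GGACT matches.

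Further downstream, the best covered Braf peaks were in intron 8, with 34 RIP fragments over 7 and a fold of 3.95 (2.77 to 5.47), and in intron 16, with 33 over 5 and a fold of 5.12 (3.57 to 7.12). A second peak in intron 16 and the peak in intron 2 had the same values, 16 RIP fragments over 2 and a fold of 5.13 (3.08 to 8.13). Equal values recur because fragments and backgrounds are small whole numbers at many summits. The peak in intron 19 had 16 over 3 and the lowest fold of the gene, 3.85 (2.31 to 6.10).

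Map3k7 encodes TAK1, the MAP3K that relays cytokine and TGF-β signals to the JNK and p38 branches. It had 2 intron peaks over 59.4 kb (chr4:31964097-32023467, plus strand), or 3.37 per 100 kb. The peak in intron 11 (chr4:31999272-31999520) had 25 RIP fragments over 3, a fold of 5.88 (3.89 to 8.55), and the peak in intron 9 (chr4:31990465-31990689) had 22 over 4, a fold of 4.16 (2.68 to 6.20). Both stood above Araf in fold, and their intervals overlapped each other and that of Araf.

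Map2k1 encodes MEK1, which phosphorylates the ERK kinases. Its single peak (chr9:64240871-64241098, minus strand) lay in intron 1 of a 67.9 kb gene. It held 52 RIP fragments over an input background of 11, a fold of 3.98 (3.0 to 5.20) and a −log10 q of 11. Among the 20 intron peaks it had the most fragments after Mapk14.

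Mapk8 encodes JNK1, a kinase of the stress branch. Both of its peaks lay in intron 1 of a 69.3 kb gene (chr14:33377898-33447158, minus strand). The peak nearer the promoter (chr14:33446497-33446704) was 311 bp from exon 1 and 0.545 kb from the start of the principal transcript, with 19 RIP fragments over 2.23 and a fold of 5.60 (3.49 to 8.57). The other (chr14:33417823-33418011) had 14 over 1.08 and a fold of 6.53 (3.79 to 10.6). Their intervals overlapped.

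Mapk14 encodes p38α, the p38 kinase most studied in myogenic differentiation. Its single peak (chr17:28737749-28738092, plus strand) in intron 9 of a 57.1 kb gene had the most RIP fragments of the 22 peaks and also the highest background, 73 over 29. The fold was 2.22 (1.75 to 2.79) and the −log10 q 5.20. This was the lowest fold of the members, 4.79% of all peaks had a lower one, and its interval alone among the 20 intron peaks did not reach that of either exon peak. Of its bases 86.6% were soft-masked and 48.8% were U.

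**Figure D2:**
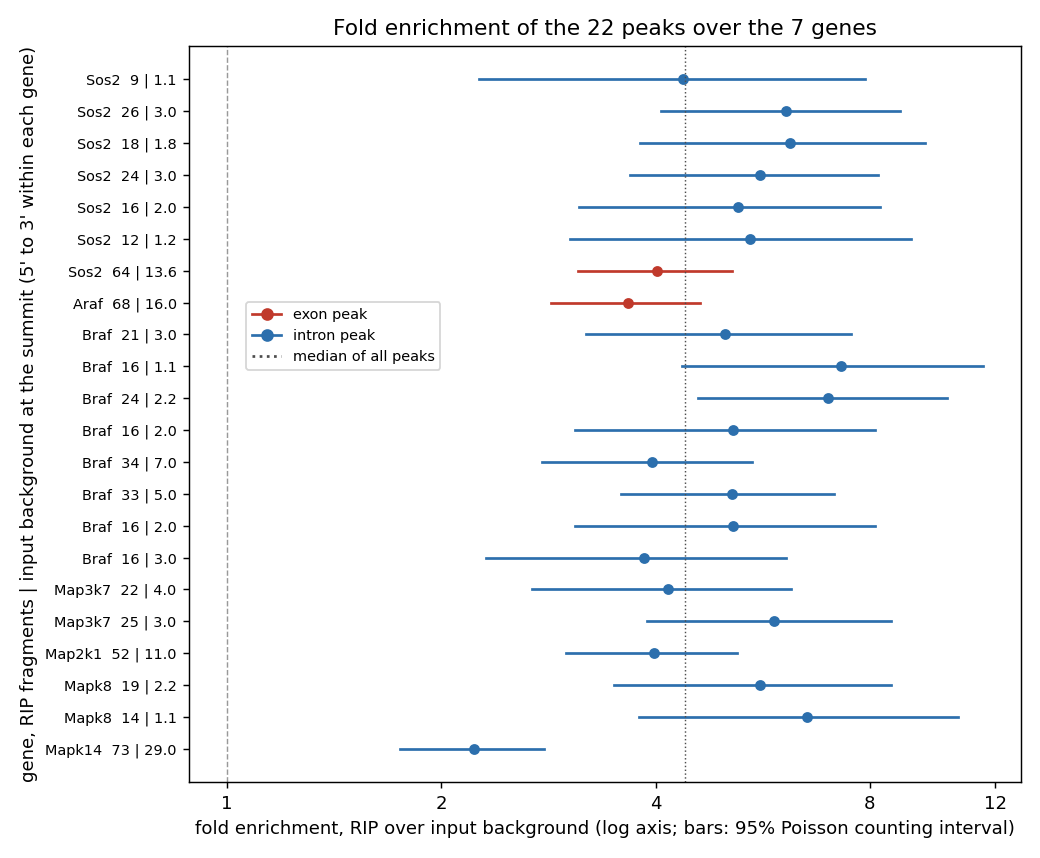
Fold enrichment of RIP over input background for the 22 peaks (x, log axis) with exact 95% Poisson counting intervals, listed 5′ to 3′ within each gene with RIP fragments and input background beside the name; the dotted line is the median of all peaks, 4.40. The exon peaks of Sos2 and Araf stand at 4.02 and 3.66, 16 intron peaks stand above both, and Mapk14 stands lowest at 2.22.

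Set together, the 2 exon peaks had a median fold of 3.84 on a median of 66 RIP fragments over a background of 14.8. The 20 intron peaks had a median fold of 5.17 (range 2.22 to 7.28) on a median of 20 RIP fragments (9 to 73) over a background of 2.60 (1.08 to 29). Of the 20 intron peaks, 16 had a fold above both exon peaks, 19 had fewer fragments than both, and 19 had a lower background than both. The counting intervals of 19 overlapped that of at least 1 exon peak. In the whole list exon peaks likewise had a lower median fold than intron peaks, 3.43 against 4.63, over a median background of 12 against 4.09. Of the 22 peaks, 8 lay below the median fold of the list and 18 had a −log10 q of 5 or more.

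By tier, the intron peaks of the MAP3K genes had a median fold of 5.13 (3.85 to 7.28) and those of Sos2 a median of 5.52 (4.37 to 6.17). The single MAP2K peak stood at 3.98, and the MAPK peaks had a median of 5.60 (2.22 to 6.53). Per length, intron peaks numbered 6.70 per 100 kb of intron in Sos2, 4.60 in the MAP3K genes, 1.55 in Map2k1 and 2.71 in the MAPK genes, against 2.39 in all protein-coding genes with a peak. Since the genes were chosen by their peaks, these densities describe the choice. Within the MAP3K tier the density varied from 7.38 in Braf to 3.78 in Map3k7 and 0 in Araf. The Araf peak, counted as an exon peak, is intronic in the principal transcript. These densities count 56.2 kb of intron for Araf, against 9.62 kb in its principal transcript. The density was highest in Braf and Sos2, and the tiers hold too few genes to be ordered by fold or density.

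The caller's fold depended on the background, and the peaks were therefore also set beside peaks of like background. The lowest fold in the list was 3.40 where the background was under 2 and 1.74 where it was 16 to 32. Among peaks with a background of 8 to 16 the list's median fold was 3.47 and its upper quartile 4.13, and Sos2's exon peak at 4.02 and Map2k1 at 3.98 lay between them. At 16 to 32 the median was 2.84 and the quartiles 2.39 and 3.40, with Araf above the upper one at 3.66 and Mapk14 below the lower one at 2.22. At a background under 2 the median was 6.25, and 2 of 6 member peaks were above it. From 2 to 4 it was 5.36, with 5 of 9 above, and from 4 to 8 it was 4.37, with 1 of 3 above. The exon peaks of Sos2 and Araf and the Map2k1 peak were thus above the median of peaks of like background and below that of the whole list.

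**Figure D3:**
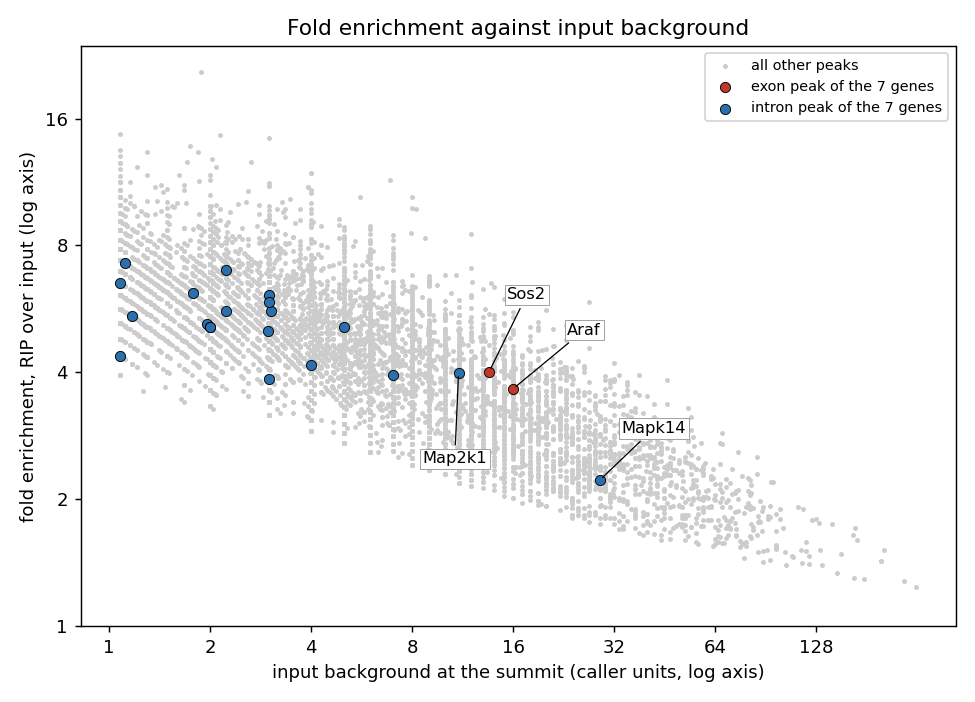
Fold enrichment (y, log axis) against input background at the summit (x, caller units, log axis) for all peaks in grey and the 22 peaks of the 7 genes in red (exon) and blue (intron). Fold falls as background rises; the exon peaks of Sos2 and Araf and the Map2k1 peak stand above the median of peaks of like background, and Mapk14 stands below it.

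Within the genes, intron peaks were spread over many introns. On the principal transcripts, where the Araf peak is intronic, 9 of 21 intron peaks (42.9%) lay in first introns, which hold 37.4% of the intron bases of the 7 genes. These were 3 of 8 in Braf, 2 of 6 in Sos2, both in Mapk8, and the single peaks of Map2k1 and Araf. Of 105 introns, 16 held a peak. Most intron peaks were far from exons, and 6 of the 20 lay within 1 kb of a principal exon.

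These 3 forms of the m6A consensus were searched on the gene's strand alone, and they cannot overlap one another. In the 200 bases about the peak centre, 3 of 22 peaks (13.6%) held a match. The share was 36.3% of such windows about the 8619 peaks of the list in protein-coding genes of 1 strand. It was 34.8% of 2680 windows tiled over the 7 gene bodies. In whole peaks there were 7 matches in 5 peaks, 4 of Braf and 1 of Map3k7. The density was 1.20 per kb of peak, against 2.25 per kb over the 7 gene bodies and 2.29 per kb in those 8619 peaks. No match stood in the exon peaks of Sos2 and Araf, nor in any peak of Map2k1, Mapk8 or Mapk14. The wider consensus of 18 forms of 5 letters has any base but C, a purine, an A, a C and any base but G. It includes these 3 forms and was in 21 of 22 windows, against 94.7% of the 8619 windows and 97.5% of the tiles. A match is a description of the letters, and its absence from a window says nothing of methylation or of YTHDF2.

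Base composition of the 22 peaks was close to that of the 8619 peaks of the list in protein-coding genes of 1 strand. The medians were 24.5% A, 19.9% C, 24.1% G and 29.9% U, against 25.1, 19.4, 23.8 and 31.0% in those 8619 peaks. The median share of soft-masked repeat was 39.1%, against 28.8% in the 8619 peaks. Of the 22 peaks, 9 were masked over more than 50% of their length, in Sos2, Braf and Mapk14, and 4 were not masked at all, namely the Araf peak, 1 peak of Braf, 1 of Map3k7 and the Mapk8 peak near the start. Of the 8619 peaks 35.0% were masked over more than 50% and 17.9% not at all, near the members' counts. With peaks masked over more than 50% left out, 13 of the 22 peaks were kept.

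Several intron peaks shared stretches of at least 16 bases, which were looked for after the values had been seen. One set joined 4 intron peaks of Sos2, Braf and Mapk14, all in the same orientation along the gene, with letters that resemble the rodent B1 short interspersed element. Another joined 4 intron peaks of Braf and 1 of Sos2 in both orientations, and in the downstream Braf intron 1 peak shown above the letters resemble the B2 element. The longest stretch was 35 bases in the first set, between Sos2 and Mapk14, and 37 bases in the second, between the Braf intron 1 pair. The 16 bases that most peaks of the first set share were, on either strand, in 3 of the 22 peaks and in 713 of the 9271 peaks (7.69%). Over windows of 200 bases they were in 13.6% of the 22 peaks and in 6.16% of all peaks, against 2.46% of the windows tiled over the 7 gene bodies. The like 16 bases of the second set were in 3 Braf peaks and in 251 of all peaks (2.71%). Over windows of 200 bases they were in 9.09% of the 22 peaks and in 2.21% of all peaks, against 1.08% of the tiles. These shares of the 22 peaks rest on 3 and 2 windows. The 16 bases were picked because most member peaks of their set hold them. A higher share in the 22 peaks than elsewhere therefore follows from the choice and is no result about these peaks. How reads from such repeated stretches were mapped is not given in the sources used here, and its part in these peaks was not tested.

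To place the 7 genes in their pathway, 131 genes of RAS and MAP kinase signalling were listed by role, the 7 included. Of these, 40 (30.5%) had a peak over the gene body, against 15.0% of all protein-coding genes, and 12 (9.16%) had an exon peak, against 7.01%. Without the 7 genes the counts were 33 of 124 (26.6%) and 10 (8.06%). Listed genes with a peak had a median length of 77.9 kb against 24.9 kb without one, and the part of length in these counts was not tested. The list's 156 peaks were 90.4% intronic (141), close to the share in the 7 genes.

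In the kinase tiers, 8 of 22 MAP3K genes had a peak, 3 of 7 MAP2K genes and 5 of 14 MAPK genes. Exon peaks were in 2 of the 43 genes of these tiers (4.65%), against 7.01% of all protein-coding genes, and both were MAP3Ks: Araf and Map3k2, whose 3′ UTR peak had 86 RIP fragments over 23 and a fold of 3.27 (2.62 to 4.02). Among the other MAP2Ks, Map2k4, which activates JNK and p38 kinases, had 2 intron peaks (highest fold 5.88, 3.89 to 8.55). Map3k3 had 4 intron peaks, the highest at 8.49 (5.47 to 12.6).

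Exon peaks were also found among the regulators around the tiers. They stood in 3 of 11 RAS inhibitors, 2 of 11 targets and 0 of 12 scaffolds, against 7.01% of all protein-coding genes. They also stood in 1 each of 8 RAS genes, 15 exchange factors and adaptors, 10 MAP4Ks, 10 MAPK phosphatases and 11 MAPK-activated kinases. Of the RAS inhibitors, Nf1 and Rasa2 were not in the authors' gene table. The exon peak of Rasa1 had 219 RIP fragments over 147, a fold of 1.34 (1.17 to 1.53). Listed genes with an exon peak fell from 12 to 9 with exons of protein-coding transcripts alone. With exons of principal transcripts they fell to 8. Taok1, a kinase upstream of p38 signalling, had 10 peaks, 3 of them exonic, with a coding-sequence peak at 7.49 (5.21 to 10.5). Dusp2, a phosphatase that inactivates MAPKs, had a coding-sequence peak at 4.74 (3.44 to 6.38). Rps6ka3, a kinase activated by ERK, had 6 peaks, with a coding-sequence peak at 4.75 (3.67 to 6.05). Mef2a, the p38 target that acts in muscle differentiation, had 14 peaks, 1 of them over the stop codon at 6.58 (4.88 to 8.70). The exon peak of Rasa2, a GTPase-activating protein of RAS, stood at 5.20 (3.35 to 7.74) and was not in the authors' gene table.

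Some listed genes had many peaks and none in exons, as Braf did. Rasal2, another RAS GTPase-activating protein, had 16 intron peaks, the highest at 8.51 (6.15 to 11.5). The RAS relative Rap1a had 7, the highest at 10.5 (6.89 to 15.4), the adaptor Frs2 had 5, the highest at 5.08 (3.60 to 6.97), and Shoc2, which promotes RAF activation, had 4, the highest at 9.25 (6.68 to 12.5). Dusp16 had 1 intron peak at 8.73 (5.92 to 12.5).

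**Figure D4:**
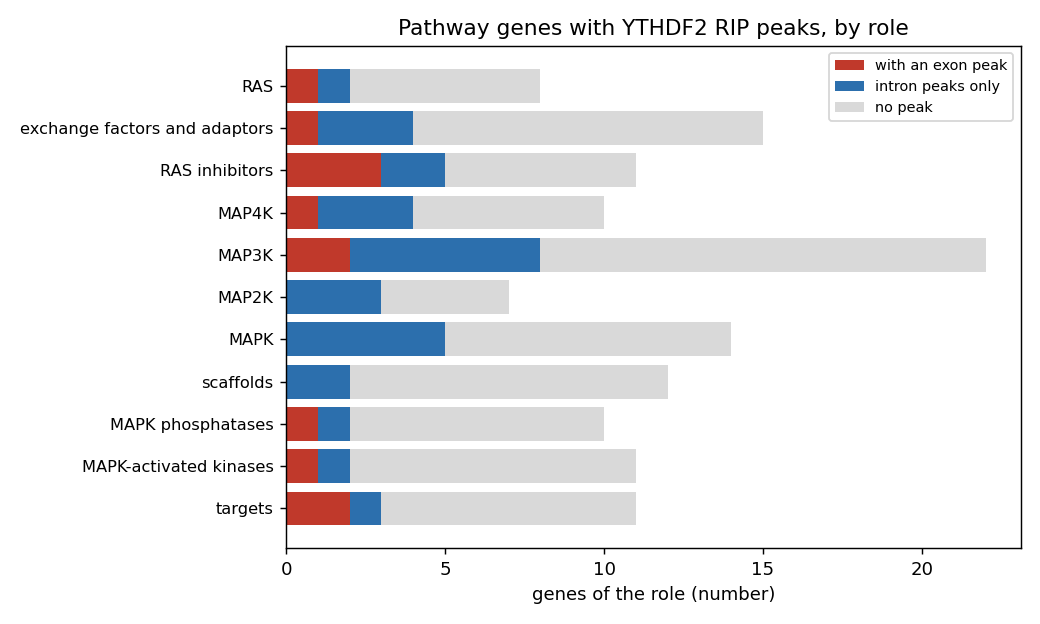
Number of listed genes (x) by role in the RAS and MAP kinase pathway (y), divided into genes with an exon peak (red), with intron peaks alone (blue) and with no peak (grey). Exon peaks stand in 2 of 22 MAP3Ks (9.09%), 0 of 7 MAP2Ks and 0 of 14 MAPKs, against 7.01% of all protein-coding genes.

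Likeness of peak pattern was measured as a distance over 3 features per gene: exon peaks, intron peaks and the highest fold, each on a log2 scale. The listed gene most like Sos2 was Rps6ka3 (distance 0.226, with 1 exon and 5 intron peaks), and the gene most like Araf was Dusp2 (0.373, with 1 exon peak alone). Braf was nearest to Rap1a (0.555) and Map3k7 to Map2k4 (0), whose best peak had the same 25 RIP fragments over 3. Map2k1 was nearest to Crk (0.111), Mapk8 to Creb1 (0.0323) and Mapk14 to Map2k5 (0.383). The Braf pair was the least alike of these, with 8 against 7 intron peaks and a highest fold of 7.28 against 10.5.

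The authors' deposited KEGG table rests on genes of their gene table, and so of the members it holds Sos2 and Araf alone. In the authors' deposited table, 35 of 219 pathways listed a member, Sos2 in 26, Araf in 23 and both in 14. In the same deposited table by the authors, 4 pathways had an FDR under 0.05, and 3 of these listed a member. In the authors' deposited table, Regulation of actin cytoskeleton (FDR 0.0138) and Pathways in cancer (FDR 0.0358) listed both genes, and Focal adhesion (FDR 0.0358) listed Sos2. The row for the MAPK signaling pathway in the authors' deposited table had 17 of 244 genes with a peak where 14.2 were expected, with a Fisher p-value of 0.253 and an FDR of 0.651, and it listed Sos2 and not Araf. The 20 intron peaks of the 7 genes had no part in these counts.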

How the data were processed

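RNA immunoprecipitated with YTHDF2 and input RNA from C2C12 myotubes were sequenced, 1 library each. Per the design text of the series, Bowtie placed the reads on mm10 and MACS called the peaks. Other tools named in the submitters' processing notes are Trim Galore, FastQC, deepTools, HOMER, DiffBind and Picard. Their versions are not given in the sources here, nor is the treatment of reads with several matches. Per the labels' protocols, the steps from pulldown to library speak of DNA, and no strand is stated. The authors' peak list holds the pileup signal, the fold enrichment (a linear ratio) and −log10 of the p-value and q-value, per the file headers. In the authors' gene table each peak is marked by transcript element. Fisher p-values and FDR of pathways come from the authors' deposited KEGG table.

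The 7 genes and the pathway and marker lists were chosen with earlier results of these data known. Peaks were placed on GENCODE M21 models: a peak overlapping any exon of the gene by at least 1 bp was an exon peak, otherwise an intron peak. Introns were numbered on the APPRIS principal transcript. The background was computed from pileup and fold. Named pathway genes were, per role, the gene of highest fold among exon peaks and the gene with most peaks, and for each member the most like gene; some of these genes and some peak sequences are not reported here. Scripts used Python 3.11.15, NumPy 2.4.6, SciPy 1.17.1 and matplotlib 3.10.9, and overlap counting and intervals were tested on simulated data. With 1 library per group no test between conditions was made. Alternatives changed the overlap, the peak threshold, the exon models, the added count and the motif.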

Additional observations from a re-analysis of the deposited data

How the results depend on the processing

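Of 66 alternative values, 50 stayed within 1.5 times the reported count or inside the limits of the reported fold or share. These were the 95% counting interval of a single fold and the Wilson interval of a share. For median folds they were the medians of the single-peak bounds (3.16 to 8.17 for intron peaks), which are not an interval of the median. At a −log10 q of 5 or more, each gene's highest fold came from the same peak and so stayed the same. The other 16 moved further, and a change of direction was not checked. Values inside these wide limits still shifted: 8 listed pathway genes had an exon peak with a fold of at least 4, and with nothing added the highest fold of Sos2 was 9.22 and the median fold of intron peaks 7.29. The number of exon peaks, 2, and of genes with one, 2, became 1 with a fold of at least 4, which leaves Sos2, and 0 with a fold at or above the list's median, below which both exon peaks lie (4.02 and 3.66 against 4.40). Both numbers also became 1 with exons of principal transcripts or of RefSeq curated transcripts, alternatives chosen after seeing the data, since the Araf peak is exonic in 1 transcript model. With a fold at or above the median, 14 of the 22 peaks were kept, 100% of them intronic in place of 90.9%, and 6 listed pathway genes in place of 12 had an exon peak. With peaks masked over more than 50% left out, also chosen after seeing the data, 13 peaks were kept. The peaks with a motif match, 3, became 5 over whole peaks and 21 with the 18 forms, which by construction match more sequence. With nothing added to pileup and background, the highest fold was 12.9 in Braf and 11.6 in Mapk8, since their backgrounds are near 1. No paired analysis was possible because there is 1 library per group. Without a replicate or depth, the counting interval is the only error known, and the intron peaks rest on 9 to 73 fragments.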

Other observations

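Close relatives of the 7 genes, chosen for their kinship after the values were seen, differed in their peaks. Sos2 had 7 peaks over 98.1 kb, against 0 over 86.7 kb in Sos1, the other SOS exchange factor. Map2k1 had 1 peak over 67.9 kb, against 0 over 28.1 kb in Map2k2, which encodes MEK2. Among the JNK genes, Mapk8 had 2 peaks over 69.3 kb, against 0 over 303 kb in Mapk10 and 1 intron peak in Mapk9, with 15 RIP fragments over 2.08 and a fold of 4.70 (2.78 to 7.55). Mapk14 had 1 peak over 57.1 kb, against 0 in the shorter p38 genes Mapk11 (7.14 kb), Mapk12 (10.1 kb) and Mapk13 (10.9 kb). RNA levels of these genes are not in the data, and little RNA and little binding cannot be told apart in a gene without a peak.

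The target gene Atf2, a transcription factor phosphorylated by JNK and p38 kinases, had 8 peaks. Its highest was an intron peak with 28 RIP fragments over 1.08, a fold of 12.6 (8.52 to 18), above every peak of the 7 genes, and its exon peak stood at 3.55 (2.76 to 4.50). It was named after its values were seen. In Sos2, a pair of intron peaks shared a run of TG repeats, and its 16 bases were in 193 of all peaks (2.08%). Over windows of 200 bases they were in 1 of the 22 peaks (4.55%) and in 1.56% of all peaks, against 0.933% of the windows tiled over the 7 gene bodies. These bases too were picked from the peaks of the 7 genes, so the share in the 22 peaks rests on that choice.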
